A study of Mus musculus with 9 samples.

Results

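Oocytes from mice supplemented with nicotinamide mononucleotide (NMN) were compared with oocytes from young mice, 3 libraries against 3, over the whole deposited gene table. The libraries are 6 of the 9 in the series, and 9168 of the 22526 listed genes were expressed highly enough to be tested. The remaining 3 libraries came from aged mice without supplementation. They also entered the choice of tested genes and the estimate of spread behind each p-value, and their levels are given for orientation. All groups were ICR mice, an outbred strain, and all oocytes were at metaphase II, the stage at which a mature egg waits for fertilisation. The young group is labelled as young, with no age in weeks or months, and the NMN group carries only the label of supplementation. The title of the series speaks of maternally aged oocytes, but the labels give neither the age of the NMN mice nor the dose, route or duration of NMN. The numbers of oocytes and mice behind a library are not given in the sources used here. A p-value here thus sets a difference against the scatter of the libraries alone, part or all of which may come from their preparation. The comparison asks how far oocytes after NMN still differ from young ones.

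NMN is a precursor of the coenzyme NAD, which carries electrons in metabolism and is consumed by sirtuins and poly(ADP-ribose) polymerases. A fully grown oocyte makes almost no new RNA. Its mRNA pool is a store built up during growth, and transcripts leave it through shortening of their poly(A) tails and decay, or are recruited for translation by tail lengthening. The libraries were primed from poly(A) with oligo(dT), so a level here is that of tailed mRNA in the library. The files give it as FPKM, fragment counts corrected for the length of the transcript and the depth of the library.

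The 6 libraries held 16.54 M to 19.25 M reads (M, mega), as estimated from the steps between low FPKM values. A transcript of 2 kb with 3 reads would then stand at 0.0779 to 0.0907 FPKM, a floor that covers counting error only. Genes above 0 numbered 16210 ± 404 in young and 16070 ± 415 in NMN libraries (SD, n = 3). The oocyte was recognisable by its markers, since the summed FPKM of 12 oocyte marker genes lay between 12300 and 18551 in every library of both groups (exact permutation p = 0.3, two-sided). NMN replicate 1 stood apart from the other 5 libraries. On the first principal component of the 6 libraries, which held 46.9% of the variance, it lay at -39.8 and the others between -4.1 and 25.4. For several gene lists and named genes, results are given below with and without it. Among all 9 libraries, aged replicate 2 lay farthest out on the first component (41.1% of the variance). It stood at 56.9, with the others between -28.6 and 22.8, and it enters the spread of the main fit.

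Little of the transcriptome could be told apart between NMN and young oocytes in the main fit, which takes its spread from all 9 libraries. At an adjusted p under 0.05 (limma, Benjamini-Hochberg over all tested genes), 7 of 9168 genes differed, or 0.0764%, with 6 higher and 1 lower after NMN. Of the 6 higher genes, 3 were tested only because the NMN libraries reached the minimum level, so they had to differ. The other 4 calls were 3 higher and 1 lower. In the same fit, 200 genes (2.18%) passed between aged and young oocytes. Both comparisons use the same young libraries, and the difference between the 2 counts was not tested. The number of calls between NMN and young, 7 in this fit, was 14 without aged replicate 2 and 73 with quality weights for the libraries. Differences are given throughout as NMN minus young on the log2(scaled FPKM + 1) scale, on which changes of genes near 0 look smaller than they are. The median gene differed by 0.21 in either direction between the group means. Between single libraries the median absolute difference was 0.25 within young, 0.29 within NMN and 0.3 between an NMN and a young library, so crossing from one group to the other added little to the spread. For 6761 genes (73.7%) the 95% interval of the difference, taken gene by gene, lay within -1 and 1 on this scale. For genes of low level this does not exclude a large fold change in FPKM, since the added 1 shrinks their differences. Another 1807 genes had an interval that included 0 but reached past 1 in some direction, so a change of that size was not excluded for them. Only 165 genes (1.8%) had an estimated difference of at least 1, with 83 higher and 82 lower.

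**Figure D1:**
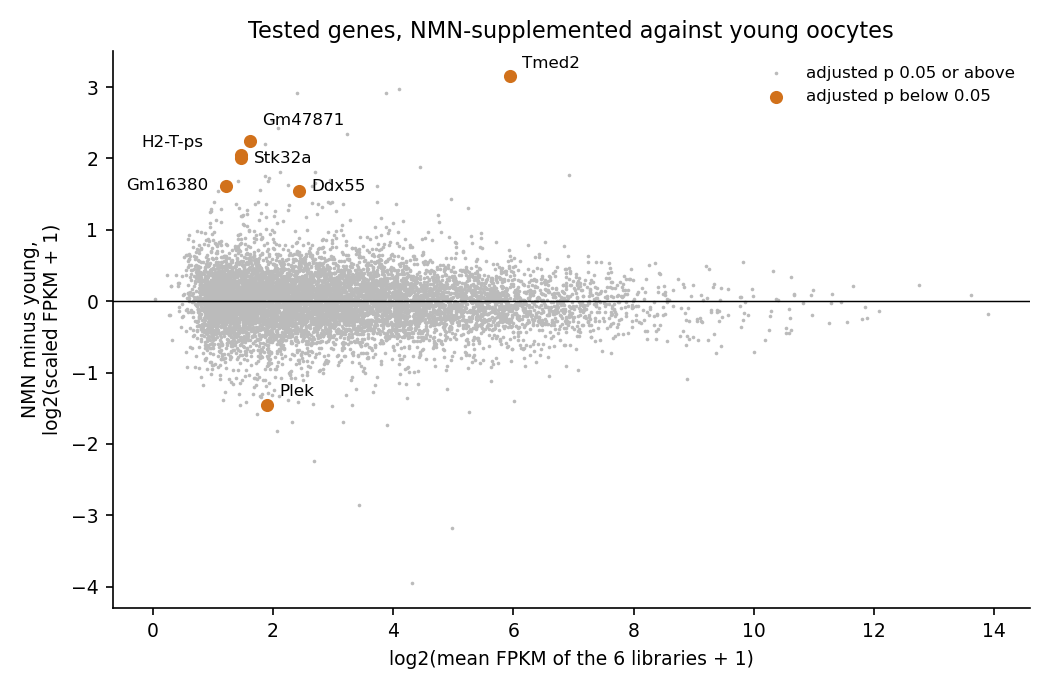
Each point is 1 of the 9168 tested genes, with its mean level over the 3 young and 3 NMN libraries on the x axis (log2 of FPKM + 1) and the NMN minus young difference on the y axis (log2 of scaled FPKM + 1). The 7 orange points passed the test, Tmed2 lies far above the other called genes, and several grey points at 2 or more in size did not pass.

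Before adjustment, 352 genes (3.84%) had p under 0.05 and were higher in NMN, and 393 (4.29%) were lower. The NMN and young libraries did not overlap, on the scaled values, for 731 genes that were higher (7.97%) and 770 that were lower (8.4%) in NMN. NMN and young libraries with the same replicate number deviated from their group means together, though weakly for 2 of the 3 numbers, and were therefore also fitted as pairs. This pairing was taken up from the same data, and the labels tie the numbers to no animal or day. Young replicates 2 and 3 correlated more with NMN replicates 3 and 2 than with their own numbers. A gene that passes only in the paired fit thus has no independent support from it. With only the 6 NMN and young libraries and a replicate block, 37 of 8625 genes passed (0.429%), 23 higher and 14 lower. All 7 genes of the unpaired fit were among them. Of these, Stk32a, Gm47871, H2-T-ps and Gm16380 were tested there only because the NMN libraries reached the minimum level. Gprc5a, Cachd1, Gm49371 and Olfr650-ps1, which did not pass in the unpaired fit, entered and passed the paired one in the same way. For all of these genes, passing in that fit is therefore no support for a difference. How many more of the 23 higher calls entered so was not counted. With the block over all 9 libraries none passed in limma (687 at an unadjusted p under 0.05), and Tmed2 came closest at an adjusted p of 0.066.

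The gene that separated the groups most firmly was Tmed2, a p24 family cargo receptor of vesicles that move between endoplasmic reticulum and Golgi. Tmed2 stood at 8.95, 11.3 and 12.5 FPKM in the young libraries and at 113, 127 and 89.6 FPKM in the NMN libraries. Every NMN library was above every young one, with a 10.02-fold ratio of the means. The difference was 3.15 ± 0.28 (SE) with an adjusted p of 0.00368 in limma, and 0.00156 in the paired fit of the 6 libraries. Aged libraries held 113 ± 29.5 FPKM (SD, n = 3), so the NMN libraries lay among the aged ones in level. Tmed2 is the only one of the 7 genes that passed whichever of the 9 libraries was left out, at an adjusted p of at most 0.0409.

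Ddx55, a DEAD-box RNA helicase, lies next to Tmed2 on chromosome 5 and was also higher after NMN. Ddx55 was at 1.76, 1.76 and 1.5 FPKM in young and at 6.99, 8.54 and 5.81 FPKM in NMN libraries, without overlap. Its mean was 4.25-fold higher, a difference of 1.55 ± 0.21 (SE) with an adjusted p of 0.0428 in limma. The aged mean was 7.19 ± 0.617 FPKM (SD, n = 3), again close to NMN.

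Plek was the one gene that fell. It encodes pleckstrin, a substrate of protein kinase C best known from platelets and white blood cells. Plek stood at 4.31, 4.32 and 4.61 FPKM in young libraries and at 0.861, 1.17 and 1.09 FPKM in NMN libraries, which makes a ratio of 0.236. The replicates of each group lay close together and far from those of the other. The difference was -1.45 ± 0.17 (SE), with an adjusted p of 0.0216 in limma. In aged libraries Plek was at 5.9 ± 0.681 FPKM (SD, n = 3), so for this gene the NMN libraries were below both unsupplemented groups. Summed markers of blood and immune cells were 0.382 to 0.954 FPKM in young and 0.778 to 2.52 FPKM in NMN libraries (exact permutation p = 0.3, two-sided), the opposite direction from Plek.

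Ddx55 and Plek moved in opposite directions and also differ in the sequence around their start sites, which is shown for both from RefSeq (GRCm38.p6). Each stretch runs from 250 bases before to 50 bases after the annotated start, 5′ to 3′ on the gene's strand, and capitals mark the dinucleotide CG.
Ddx55, chr5:124552614-124552913, plus strand: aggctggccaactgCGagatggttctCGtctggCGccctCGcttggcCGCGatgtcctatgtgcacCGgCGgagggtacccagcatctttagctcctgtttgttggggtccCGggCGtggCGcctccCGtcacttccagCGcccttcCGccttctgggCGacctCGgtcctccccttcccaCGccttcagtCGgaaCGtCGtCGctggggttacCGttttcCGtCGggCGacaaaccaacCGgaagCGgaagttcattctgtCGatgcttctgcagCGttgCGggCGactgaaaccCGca
Plek, chr11:17008669-17008968, minus strand: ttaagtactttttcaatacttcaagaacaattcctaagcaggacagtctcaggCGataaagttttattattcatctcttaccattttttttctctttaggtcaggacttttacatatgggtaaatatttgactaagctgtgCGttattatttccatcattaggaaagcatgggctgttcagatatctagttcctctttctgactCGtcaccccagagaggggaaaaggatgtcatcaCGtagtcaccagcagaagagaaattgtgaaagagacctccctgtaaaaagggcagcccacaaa
The Ddx55 window holds 32 CG and is 63.7% G or C. The Plek window holds 4 CG and is 39.0% G or C. Among the 6635 tested genes with such an entry, the median was 21 CG, 19.7% had at least as many as Ddx55 and 9.6% had at most as many as Plek. The contrast is that of these 2 genes and not of the directions as a whole. Genes whose libraries did not overlap had a median of 22 CG where higher in NMN (556 of 731 with an entry) and 19 where lower (526 of 770), and the median G and C content was 61.3% and 59.3%. The coordinates are those of the RefSeq table and not of the mm9 build named for the deposited files.

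Stk32a, a serine/threonine kinase gene, was nearly absent from young oocytes. Stk32a was listed at 0, 0.168 and 0.0414 FPKM in young libraries and at 4.96, 2.09 and 3.42 FPKM in NMN libraries. The groups did not overlap, and the difference was 2.0 ± 0.28 (SE) with an adjusted p of 0.0428 in limma. Aged libraries held 3.96 ± 1.78 FPKM (SD, n = 3). At such levels a young value rests on few reads, and the size of the fitted change depends on the pseudocount of 1.

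The remaining 3 of the 7 calls are a predicted long noncoding RNA and a pair of pseudogenes, which fall outside the rule by which genes were chosen for naming. Gm47871 (a lincRNA on chromosome 12) was listed at 0 in all young and all aged libraries and at 5.75, 4.92 and 1.71 FPKM in NMN libraries. H2-T-ps, a pseudogene of the major histocompatibility complex on chromosome 17, was at 0 in the same 6 libraries and at 6.18, 1.76 and 2.72 FPKM after NMN. Gm16380, a processed pseudogene on chromosome 9, was at 0.375, 0 and 0 FPKM in young and at 3.36, 1.68 and 2.53 FPKM in NMN libraries. These genes thus appeared in the NMN libraries and in almost none of the others. A gene needed 1 FPKM in 3 libraries to be tested, and these genes reached it in the NMN libraries alone. They thus had to differ, and their adjusted p of 0.0428 in limma is no support for a difference. Of all tested genes, 8 entered in this way, and these 3 are the ones called. Pseudogenes can share reads with near-identical copies, so their levels are uncertain.

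**Figure D2:**
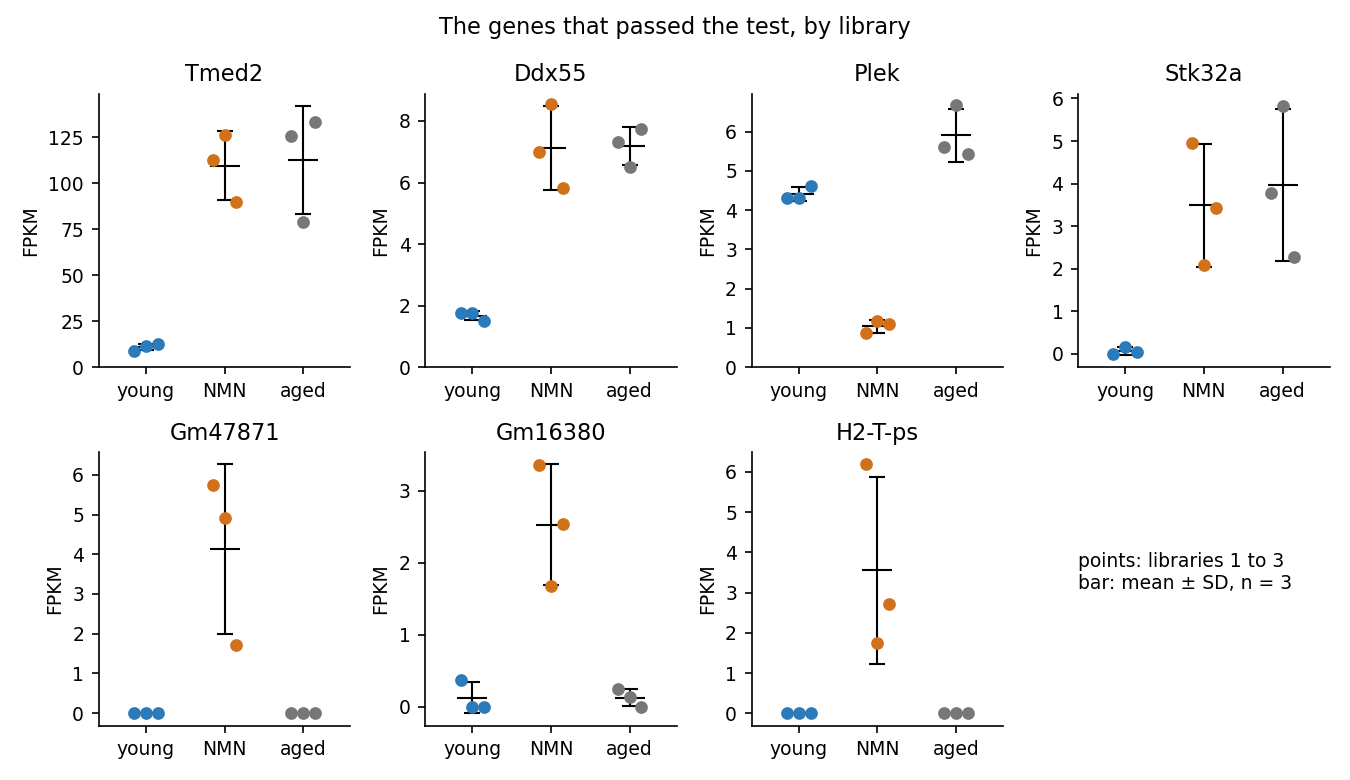
FPKM of the 7 genes that passed, by group, with 1 point per library and bars for the mean ± SD of 3 libraries on a linear axis for each gene. Tmed2, Ddx55 and Stk32a were as high in aged as in NMN libraries, Plek was lowest in the NMN libraries, and the 3 predicted genes or pseudogenes were at or near 0 outside NMN.

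The calls depended on single libraries. Without any 1 of young replicates 1, 2 or 3, NMN replicate 1 or aged replicate 1, 1 gene passed, Tmed2, while 14 passed without aged replicate 2 and 3 without aged replicate 3, and Plek, Ddx55 and Stk32a reached adjusted p-values of 0.223, 0.281 and 0.3 in their least favourable case. FPKM as deposited, without scaling, left 3 calls (Tmed2, Ddx55 and Plek), and quality weights for the libraries gave 73.

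Tmed2 and Ddx55 are neighbours, and no other pair of neighbouring tested genes had both members called. ICR mice are outbred, and whether the groups differ in genotype in this stretch was not tested. Gene order was taken from GENCODE M21, and this stretch was looked at after its values were known. Among Tmed2 and the 8 tested genes on each side of it, the NMN and young libraries did not overlap for 10 of 17 (58.8%), and for 16.4% of all tested genes. The 10 include Tmed2 and Ddx55, the calls that led to this stretch, so the 2 shares are not on an equal footing. The differences went both ways. Rilpl1, next to Tmed2 on its other side and a regulator of protein content at the primary cilium, was at 2.89 ± 0.787 FPKM in young and 0.558 ± 0.794 FPKM in NMN libraries (SD, n = 3), a difference of -1.45 ± 0.31 (SE). Its adjusted p was 0.209 in limma. Mphosph9 was at 4.32 ± 0.28 FPKM in young and 11.3 ± 4.73 FPKM in NMN libraries (SD, n = 3), with an adjusted p of 0.319, and Pitpnm2 at 8.19 ± 0.479 and 4.26 ± 1.14 FPKM, with an adjusted p of 0.241. For these 3 genes the aged means were 0.083, 15.4 and 3.59 FPKM, on the NMN side of the young level. Gtf2h3 and Tctn2, a few genes further on, differed by -0.01 and -0.13.

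**Figure D3:**
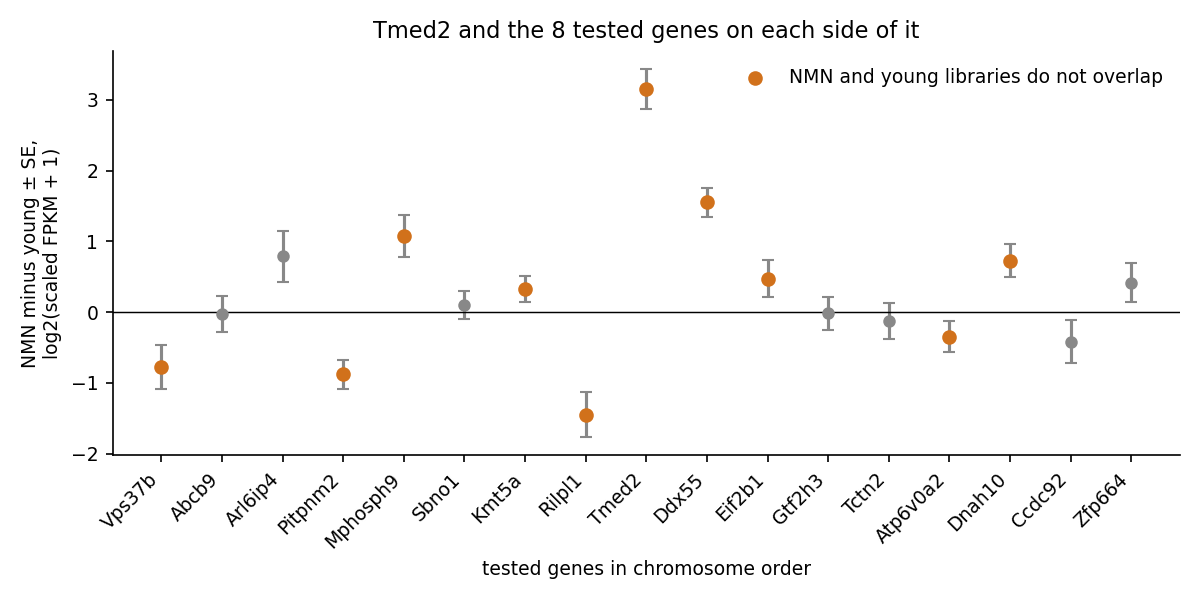
NMN minus young difference (log2 of scaled FPKM + 1, ± SE) for Tmed2 and the 8 tested genes on each side of it, in chromosome order and not to genomic scale. Orange marks genes whose NMN and young libraries do not overlap, and they lie on both sides of 0.

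Some of the largest differences did not pass. Of the 15 genes that differed by at least 2, 11 missed the threshold, 7 higher and 4 lower in NMN, with adjusted p-values of 0.0726 to 0.426. These were listed after their values were seen. Gprc5a, an orphan G protein-coupled receptor induced by retinoic acid, came nearest. Gprc5a was at 0.0574, 0.0552 and 0.15 FPKM in young and 8.39, 14 and 3.05 FPKM in NMN libraries, a difference of 2.92 ± 0.46 (SE). Its adjusted p in limma was 0.0726, and 0.0407 in the paired fit. Gprc5a entered the paired fit only because the NMN libraries reached the minimum level, so the paired value is no support for a difference. Gli3, a transcription factor of Hedgehog signalling, was at 2.2, 4.55 and 0.0163 FPKM in young and at 18.9, 19.6 and 5.05 FPKM in NMN libraries, and passed only in the paired fit (adjusted p = 0.0149). In both groups Gli3 was lowest in replicate 3 and highest in replicate 2. Tpm3-rs7, a tropomyosin-related sequence, stood at 2.61, 3.09 and 2.42 FPKM in young and 33, 34.1 and 21.3 FPKM in NMN libraries, with an adjusted p of 0.199 and of 0.00156 in the paired fit. Amd2, a copy of the gene for S-adenosylmethionine decarboxylase, was at 7.69, 9.85 and 10.3 FPKM in young and at 0.517, 0.515 and 3.8 FPKM in NMN libraries (adjusted p = 0.199, paired 0.0457). The last 2 genes resemble other genes closely, so reads may have been shared.

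Among genes with at least 10 FPKM in the higher group, only Tmed2 passed. The rule then took the genes with the smallest p whose libraries did not overlap, none of which passed. Of 7 such genes that were higher in NMN, adjusted p-values ran from 0.0841 to 0.271. Rnf5, a ubiquitin ligase of the endoplasmic reticulum, led them with 13.6, 15.6 and 15.1 FPKM in young and 33.9, 27.5 and 31.6 FPKM in NMN libraries. Its difference was 0.96 ± 0.16 (SE), and the aged mean was 43 ± 7.3 FPKM (SD, n = 3). Hormad1, part of the axis of meiotic chromosomes, was at 11.1, 18.2 and 15.5 FPKM in young and at 53.8, 54.4 and 27.1 FPKM in NMN libraries (adjusted p = 0.199). Med6, a Mediator subunit, was at 30.3 ± 1.16 FPKM in young and 54.3 ± 6.13 FPKM in NMN (SD, n = 3), and Tuba1c, an alpha-tubulin, at 25.6 ± 4.94 and 51 ± 5.86 FPKM. Syngr2, a vesicle membrane protein, Edn1, the precursor of endothelin-1, and Slc25a39, a carrier of the inner mitochondrial membrane, had differences of 1.17, 1.40 and 0.97. Without NMN replicate 1 the adjusted p in limma was 0.513 for Rnf5 and 0.673 for Hormad1, Syngr2 and Med6.

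The 9 genes on the lower side had adjusted p-values of 0.199 to 0.276. Oog1, an oocyte-specific gene of the oogenesin group, was the most abundant of them, at 562, 658 and 648 FPKM in young and 215, 462 and 281 FPKM in NMN libraries. Its difference was -1.09 ± 0.28 (SE), and the aged mean was 347 ± 28.6 FPKM (SD, n = 3). Svip, a small inhibitor of protein degradation at the endoplasmic reticulum, was at 30.7, 33.8 and 32.8 FPKM in young and 16.7, 19.4 and 16.6 FPKM in NMN libraries. Svip missed the threshold in the unpaired fit (adjusted p = 0.249) and passed in the paired one (0.0478). Mrpl9, a protein of the large mitochondrial ribosomal subunit, was at 25.6 ± 3.09 FPKM in young, 13 ± 3.13 in NMN and 7.43 ± 1.71 in aged libraries (SD, n = 3). Sspn, a membrane partner of dystrophin, was at 63.4 ± 1.97 FPKM in young and 35.8 ± 6.36 FPKM in NMN. Cltrn, an amino acid transport partner related to angiotensin-converting enzyme, was at 24.2 ± 5.37 and 10.7 ± 2 FPKM. Without NMN replicate 1 the adjusted p in limma was 0.902 for Oog1 and 0.673 for Cltrn. Fam3c, Isoc1, Tmem35b and the noncoding RNA Halr1 differed by -0.98, -1.01, -0.75 and -1.47.

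Gene lists for 29 pathways were then read for their direction. One member of all the lists passed, Tmed2 in the list of vesicle transport. Over all tested genes the median difference was 0.00. Mitochondrially encoded mRNAs, the subunits of the respiratory chain made inside the organelle, lay lowest of the lists. Of the 10 tested, 0 passed, 3 were lower without overlap (30%, against 8.4% of all tested genes), and the median difference was -0.34 (range -0.71 to 0.00). Summed over the 12 mitochondrial mRNAs in the table, the young libraries held 5126, 5346 and 5977 FPKM and the NMN libraries 3721, 4536 and 3997 FPKM. The sums did not overlap. Aged libraries held 2848, 4813 and 2630 FPKM, a range that contains the NMN sums.

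mt-Nd1, a subunit of complex I, stood at 1206, 1268 and 1266 FPKM in young and at 688, 874 and 831 FPKM in NMN libraries. Its difference was -0.71 ± 0.19 (SE). The adjusted p was 0.283 in the unpaired and 0.0445 in the paired fit. mt-Co1, the catalytic subunit of cytochrome oxidase, was at 1329, 1218 and 1535 FPKM in young and 904, 1086 and 921 FPKM in NMN, and mt-Nd5 at 110, 129 and 122.7 and at 92.1, 104 and 105 FPKM. Both had no overlap between the groups and adjusted p-values of 0.64 and 0.703. mt-Cytb, cytochrome b, overlapped, with 1360, 1737 and 1929 FPKM in young and 1002, 1545 and 1302 FPKM in NMN libraries. mt-Nd6, the subunit encoded on the other strand, differed by 0.00. With FPKM as deposited and with quantile scaling, 9 of the 10 remained lower in mean, at a median of -0.29. Without NMN replicate 1 all 10 were lower in mean, at a median of -0.32. The rRNAs mt-Rnr1 and mt-Rnr2, the RNA of the mitochondrial ribosome, differed by 0.33 and -0.23, each with an SE larger than the difference.

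**Figure D4:**
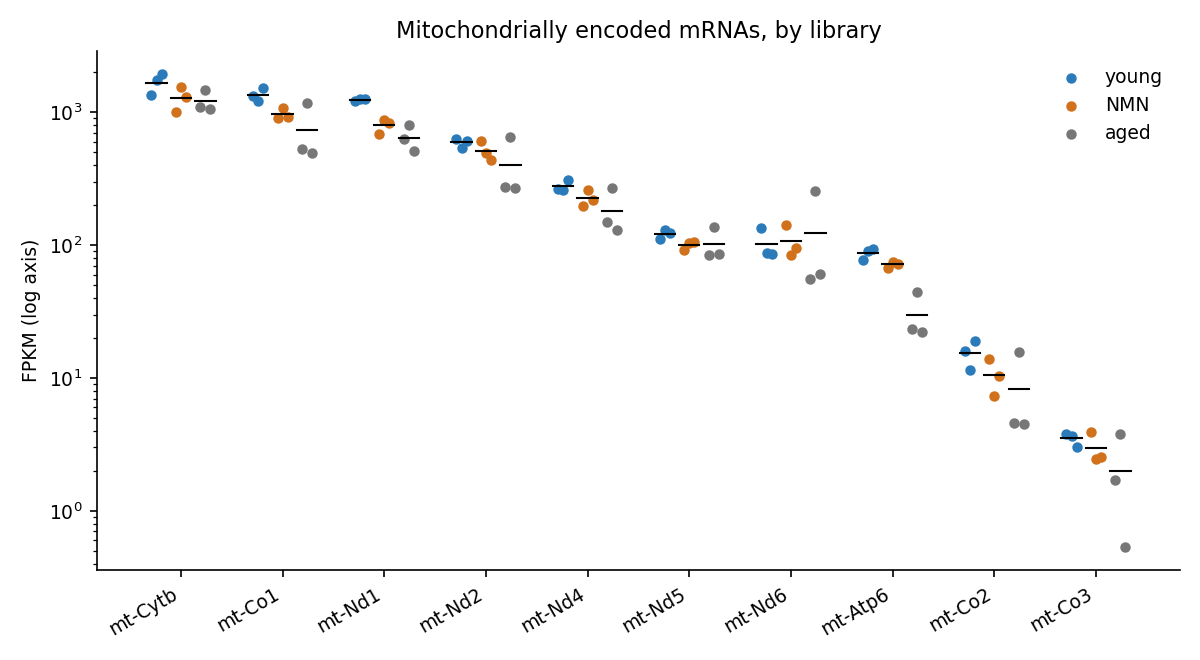
FPKM of the 10 tested mitochondrially encoded mRNAs on a log axis, with 1 point per library and a bar for the mean of each group of 3. On the unscaled values plotted, NMN libraries lay below the young ones without overlap for mt-Nd1, mt-Co1, mt-Nd5 and mt-Atp6. For mt-Atp6 the groups overlapped once scaled. Aged libraries were spread more widely.

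Nuclear genes for the respiratory chain and ATP synthase lay on the other side of 0. Of 44 tested, 0 passed, 35 had a higher mean in NMN and the median difference was 0.26. The groups did not overlap for 9 that were higher (20.5%, against 7.97% of all tested genes) and 1 that was lower. Ndufa4, a subunit associated with cytochrome oxidase, was at 4.2, 2.83 and 1.58 FPKM in young and 12.8, 5.23 and 7.4 FPKM in NMN libraries (adjusted p = 0.64). Ndufc2, of complex I, was at 2.22 ± 0.748 and 4.97 ± 2.6 FPKM (SD, n = 3; adjusted p = 0.561). NMN replicate 1 was the highest of the 6 libraries for both, and its summed level over the list, 758 FPKM, exceeded the 577 and 628 FPKM of NMN replicates 2 and 3. Without NMN replicate 1 the median of the list was 0.13.

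Cytosolic ribosomal proteins followed the same libraries. Of 33 tested, 0 passed and 25 had a higher mean, with a median difference of 0.22, but the summed levels overlapped, at 598, 499 and 491 FPKM in young and 703, 425 and 562 FPKM in NMN libraries. Without NMN replicate 1 the median was 0.04. Mitochondrial ribosomal proteins had a median of 0.13 over 53 genes, and -0.03 without that library. Antioxidant genes had a median of 0.17 over 24 genes, and 0.07 without it. Sod1 and Sod2, the cytosolic and mitochondrial superoxide dismutases, differed by 0.42 ± 0.37 and 0.21 ± 0.16 (SE). Prdx1, a peroxiredoxin, was at 708 ± 96.1 FPKM in young and 667 ± 5.75 FPKM in NMN libraries (SD, n = 3). Nqo1, a quinone reductase of the same list, had the smallest p and lay in the other direction, at 20.1 ± 2.33 and 12.9 ± 1.57 FPKM (adjusted p = 0.323).

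Genes of NAD metabolism, the pathway that NMN feeds, did not separate the groups. Of 14 tested, 0 passed, 8 had a higher and 6 a lower mean, and the median was 0.04 (range -0.44 to 0.98), or -0.03 without NMN replicate 1. Nampt, which makes NMN in the salvage pathway, was at 0.911, 1.37 and 1.65 FPKM in young and 0.471, 0.805 and 0.945 FPKM in NMN libraries, with overlap. Nmnat1, which turns NMN into NAD in the nucleus, was at 1.51 ± 0.333 and 1.67 ± 0.245 FPKM (SD, n = 3). The interval of its difference ran from -0.41 to 0.54. Sirt1, an NAD-dependent deacetylase, was at 3.71, 2.01 and 1.99 FPKM in young and 4.99, 3.08 and 4.99 FPKM in NMN libraries (adjusted p = 0.635). Parp4 had libraries without overlap, at 1.32 ± 0.256 and 2.07 ± 0.283 FPKM (SD, n = 3), and an adjusted p of 0.629. Nmnat3, Sirt2 and Sirt3 were too low to be tested.

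Proteasome and ubiquitin genes gave no call either. Of 34 proteasome genes, 24 had a higher mean and the median was 0.09, and without NMN replicate 1 it was 0.04 with 19 higher. Those with p under 0.05 before adjustment were 4, all higher (11.8% against 3.84% of all tested genes). Psmd9, an assembly chaperone of the regulatory particle, was at 49.2, 45.8 and 49.7 FPKM in young and 85.3, 87 and 61.5 FPKM in NMN libraries (adjusted p = 0.363). Psma5, a subunit of the core, was at 16 ± 1.74 and 27.3 ± 7.13 FPKM (SD, n = 3). Ube2c, the conjugating enzyme that works with the anaphase-promoting complex, was at 34.3, 33.1 and 25.3 FPKM in young and 76.6, 37 and 56.3 FPKM in NMN libraries. It did not overlap, but did not pass (adjusted p = 0.418).

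Genes of chromosome cohesion and segregation, which fail more often in eggs of older mothers, gave no call either. Lists of cohesin and chromosome axis (26 tested), of checkpoint, kinetochore and centromere (43) and of tubulin, kinesin and spindle assembly (46) had medians of -0.05, -0.02 and 0.05. The medians hide members on both sides. In the tubulin list 8 genes (17.4%) were higher without overlap, against 7.97% of all tested genes, and 5 (10.9%) were higher at an unadjusted p under 0.05, against 3.84%. In the checkpoint list 4 (9.3%) were lower without overlap, against 8.4%, and in the cohesin list, which holds Hormad1, 2 were higher and 2 lower (7.69% each). Without NMN replicate 1 the checkpoint median was -0.08. Cdca5, or sororin, which protects cohesin, was at 82 ± 1.82 FPKM in young, 63.1 ± 7.37 in NMN and 44.8 ± 7.81 in aged libraries (SD, n = 3). Its difference of -0.44 had an adjusted p of 0.614. Bub1b and Mad2l1, proteins of the spindle checkpoint, differed by 0.16 ± 0.19 and 0.15 ± 0.19 (SE). Tubb3, a beta-tubulin, was at 65.9, 66 and 63.3 FPKM in young and 112, 120 and 85.5 FPKM in NMN libraries (adjusted p = 0.35). The list of actin and polar body genes (40 tested) had a median of 0.13, and that of meiotic maturation (45) one of 0.02. Mos and Ccnb1, which hold the egg at metaphase II and drive its entry there, had differences of 0.16 ± 0.25 and -0.30 ± 0.27 (SE).

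Egg coat and maternal-effect genes were read in the same way. Of 16 tested genes of the zona pellucida, sperm binding and cortical granules, 0 passed. Their median was 0.12, or 0.19 without NMN replicate 1. The groups did not overlap for 4 that were higher (25%, against 7.97% of all tested genes) and 2 that were lower (12.5%, against 8.4%). Zp3, the zona pellucida glycoprotein, was at 116, 102 and 124 FPKM in young and 186, 158 and 212 FPKM in NMN libraries, without overlap (adjusted p = 0.467). Zp1 and Zp2 differed by -0.03 ± 0.43 and 0.18 ± 0.42 (SE). Astl, the ovastacin protease of cortical granules, was at 159 ± 8.77 and 220 ± 17.2 FPKM (SD, n = 3; adjusted p = 0.749). The 16 genes of the subcortical maternal complex and the NLRP family had a median of -0.15, and -0.02 without NMN replicate 1. Nlrp5 was at 99.9, 137 and 135 FPKM in young and at 73.2, 133 and 151 FPKM in NMN libraries. Gdf9 and Bmp15, growth factors that the oocyte sends to its follicle cells, overlapped widely, at 2731 ± 63.4 and 2837 ± 374 FPKM for Gdf9 and at 792 ± 201 and 724 ± 186 FPKM for Bmp15 (SD, n = 3).

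Regulators of DNA methylation and chromatin had a median of 0.20 over 45 tested genes, with 31 higher in mean and 0 called. The groups did not overlap for 10 that were higher (22.2%, against 7.97% of all tested genes) and 1 that was lower. Among the 10 is H3f3a, at 0.307, 0.328 and 0.148 FPKM in young and 1.68, 1.05 and 0.673 FPKM in NMN libraries. Without the NMN libraries H3f3a would not have reached the minimum level for testing, so its lack of overlap is no support. The median of the list was 0.15 without NMN replicate 1. Dnmt1, the maintenance methyltransferase, was at 143, 144 and 133 FPKM in young and 188, 185 and 157 FPKM in NMN libraries (adjusted p = 0.738). Cbx1, a heterochromatin protein, was at 15.1, 15.1 and 12.8 FPKM in young and 28.7, 24.4 and 18.9 FPKM in NMN libraries (adjusted p = 0.418). H2afx, the histone variant phosphorylated at DNA breaks, was at 14.2 ± 2.77 FPKM in young and 37.3 ± 15 FPKM in NMN (SD, n = 3; adjusted p = 0.363). Its list, DNA damage response and repair (55 tested), held no call and had a median of -0.04. Maternal mRNA storage and decay (44 tested) had a median of -0.08, chaperones and the unfolded protein response (48) one of 0.04, and autophagy (31) one of -0.01. Without NMN replicate 1 these 3 medians changed sign, to 0.03, -0.03 and 0.05.

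**Figure D5:**
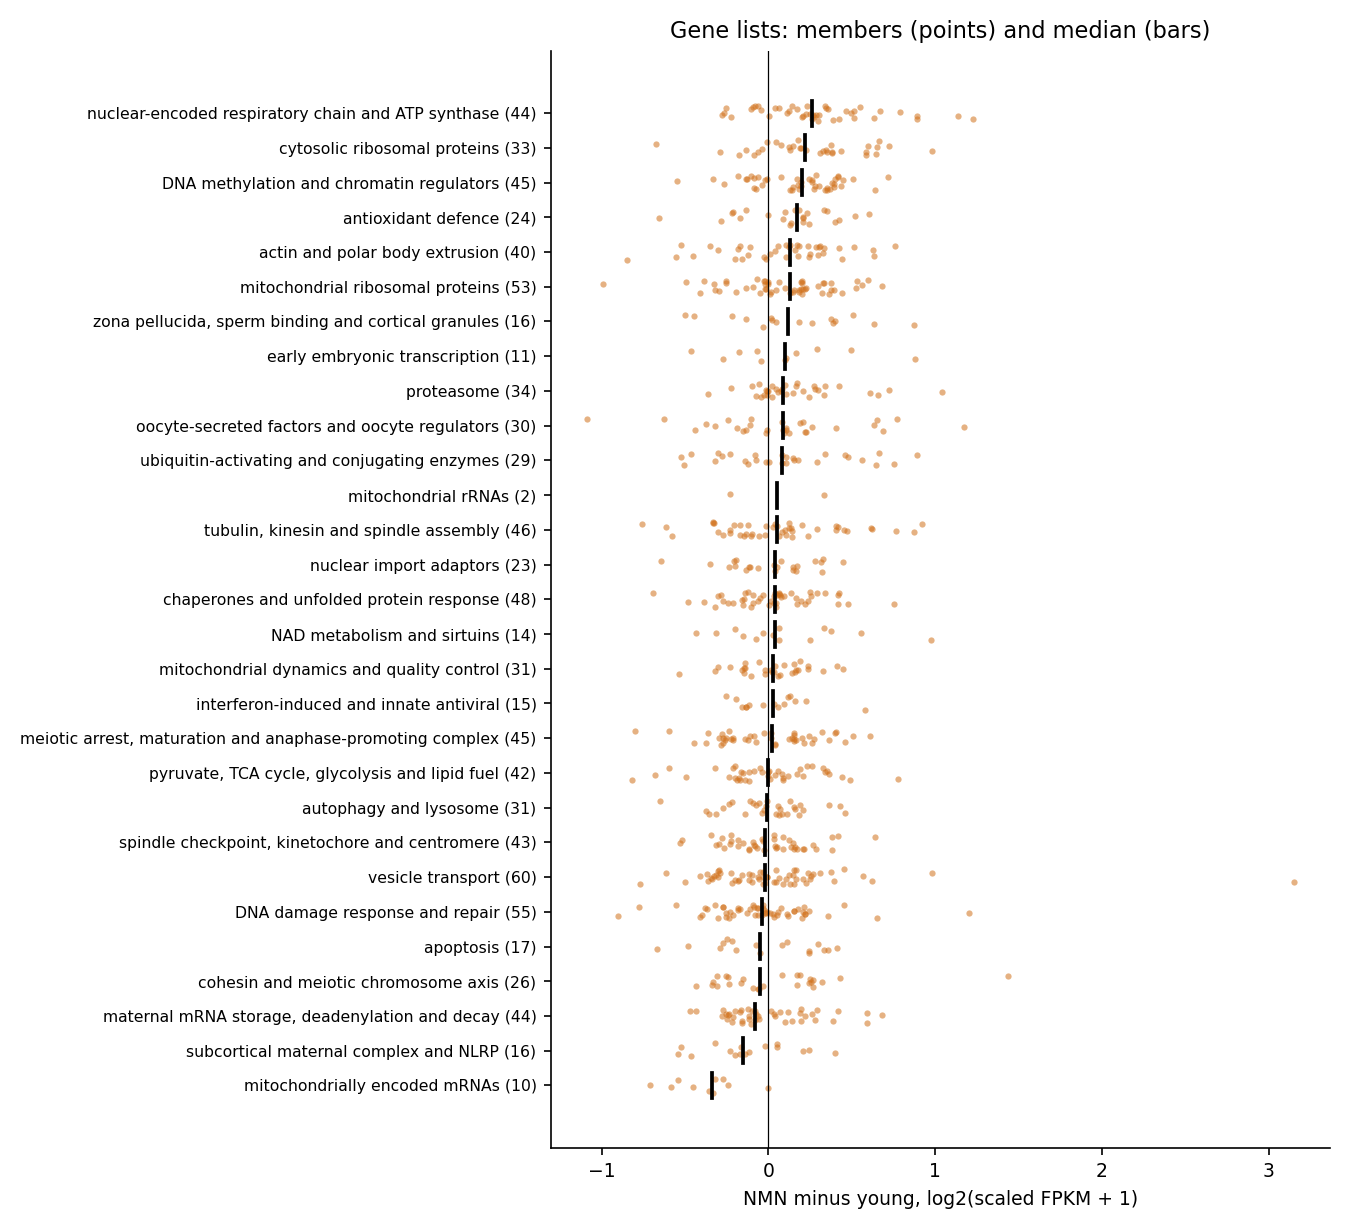
NMN minus young difference (log2 of scaled FPKM + 1) of each tested member of 29 gene lists as points, with the list median as a bar and the number of tested members in parentheses. Medians ran from -0.34 for mitochondrially encoded mRNAs to 0.26 for nuclear respiratory chain genes, and Tmed2 in vesicle transport lies apart at 3.15.

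A set of genes had been taken up because they differ between aged and young oocytes in these same data, so their distance from the aged level is no independent evidence. In several of them the NMN libraries stood near the young ones. Vamp3, a SNARE of membrane fusion, was at 27.6 ± 2.48 FPKM in young, 34.7 ± 3.42 in NMN and 8.01 ± 1.04 in aged libraries (SD, n = 3). Kpna2, an importin alpha, was at 32 ± 1.68, 37.1 ± 2.8 and 83.4 ± 6.93 FPKM in the same order. For Kpna2 the interval of the NMN minus young difference was -0.24 to 0.54, and for Vamp3 -0.13 to 0.65. Every NMN library was nevertheless above every young one for both genes. For Vamp3 that is the direction away from the aged level. Mis18a, a factor for loading the centromeric histone, was at 2.66 ± 0.615, 3.31 ± 0.26 and 8.02 ± 1.55 FPKM, and Dppa1 at 8.99 ± 0.97, 8.18 ± 1.6 and 21.5 ± 5.62 FPKM.

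In others the NMN libraries lay between young and aged or were uneven. Zfp961, a zinc finger gene, was at 54.4 ± 11.3 FPKM in young, 40 ± 4 in NMN and 12.4 ± 2.12 in aged libraries (SD, n = 3). Cirbp, a cold-inducible RNA-binding protein, was at 76.2 ± 7.24, 59.4 ± 14.6 and 29.3 ± 1.85 FPKM, and mt-Atp6 at 87 ± 8.28, 71.6 ± 3.63 and 30 ± 12.5 FPKM. Ypel5 was at 141, 131 and 114 FPKM in young and at 241, 131 and 236 FPKM in NMN libraries, with NMN replicate 2 at the young level and the other two above it. Bst2, the antiviral protein tetherin, was split in the same way, at 35, 13.8 and 40.6 FPKM in NMN against 18.3, 15 and 18.2 FPKM in young libraries. Pcp4l1 was at 0.415, 5.7 and 4.99 FPKM in NMN libraries and 1.06, 2.77 and 2.14 FPKM in young ones. None of these passed between NMN and young. Of the 41 genes fixed for naming, 36 were tested and 2 passed, Tmed2 and Plek. Before adjustment 8 had p under 0.05 (22.2%, against 8.13% of all tested genes), but earlier results of these data were known when they were chosen.

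Markers of other cells were low in both groups. The summed FPKM of 16 cumulus and granulosa markers was 8.05, 9.69 and 7.7 in young and 4.93, 5.41 and 7.39 in NMN libraries, without overlap (exact permutation p = 0.1, two-sided, the smallest that 3 against 3 libraries allow). Of these markers 6 were at 0 in all young libraries and 6 in all NMN libraries. Inha, Fst, Ptx3, Tnfaip6 and Foxl2, defining genes of these cells, were at 0 in all 6 libraries, and most of the sum was Cyp19a1, the oestrogen-making aromatase, at 5.27 to 6.21 FPKM in young and 3.05 to 4.16 FPKM in NMN libraries. With those defining genes at 0, the sum is mainly the level of Cyp19a1, and whether it reflects attached follicle cells at all was not tested. In such bulk measurements, fewer cells and less RNA per cell cannot be told apart either. The part that the difference in this sum has in the results above was not tested. Endothelial markers summed to 9.42 to 11.8 FPKM in young and 7 to 12.6 FPKM in NMN libraries. Markers of theca and stroma, oviduct and sperm summed to at most 0.75, 2.19 and 0.609 FPKM. Genes of handling stress summed to 59 to 74 FPKM in young and 64.7 to 77.7 FPKM in NMN libraries.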

How the data were processed

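Tailed RNA of mouse metaphase II oocytes was measured by Smart-seq2, with DNBseq libraries, per the labels' protocols. An MGISEQ-2000 is named as instrument in the descriptions, an Illumina platform in the design text. Groups and replicate numbers come from the sample titles, and the table's columns were matched through the sample descriptions. The authors deposited 1 table of FPKM values for 22526 genes, although its name speaks of raw counts. Per the submitters' processing notes, Bowtie2 2.2.5, RSEM and the build mm9 were used, while annotation and strand setting are not given in the sources used here. GENCODE M21 matched 22487 identifiers (99.83%) and was used for names, transcript lengths and gene order only. Multiplied by transcript length, low values were whole multiples of 1 unit, within 0.02 reads, for 96.2 to 97.6% of them in the 6 libraries, which gave the depths. No 2 libraries shared values above 0.

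Libraries were scaled by a trimmed mean of their ratios (trimming 30% on the ratio and 5% on the level). Genes reaching 1 FPKM in 3 or more of all 9 libraries were tested with limma 3.58.1 (R 4.3.3) on log2(FPKM + 1), with group means of all 9 libraries, a variance trend, robust moderation and Benjamini-Hochberg adjustment. The steps were tested on simulated data. Printed levels are FPKM as deposited. Same-numbered NMN and young libraries deviated together from their group means (r = 0.497, 0.119 and 0.142, all over 0.1), so they count as pairs. Young replicate 3 correlated more with NMN replicate 2 (0.289) and young replicate 2 more with NMN replicate 3 (0.167) than with their own number. The labels tie the numbers to no animal or day, and aged libraries did not pair. Promoters came from RefSeq (GRCm38.p6), found by symbol for 6635 tested genes (72.4%).

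Genes were named by rule: up to 10 a direction, called and without overlap at 10 FPKM or more, then at 1 FPKM or more, then the smallest p without overlap; up to 3 with the smallest p per list; and 41 chosen genes, of which Rec8 was not analysed here and 4 were too low. These genes, the 29 pathway lists and the 8 marker lists were chosen with earlier results of these data known. For marker sums the exact permutation test, two-sided, was used. Other scalings, filters, pseudocounts, weights, pairing and left-out libraries were tried.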

Additional observations from a re-analysis of the deposited data

How the results depend on the processing

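The number of called genes moved with the processing, and the cause was not tested. It was 17 (15 higher, 2 lower) with only the 6 libraries, 37 (23 and 14) with these and the replicate block, 73 (38 and 35) with quality weights, 3 (2 higher) with FPKM as deposited, and 1 (1 higher, 0 lower) among the 3540 genes with at least 10 FPKM in 3 libraries. In limma it was 0 (0 higher, 0 lower) with the replicate block over all 9 libraries, with 687 at an unadjusted p under 0.05, and 0 without a filter, with 1260 of 22526. Leaving out 1 library gave 1 to 14 calls, 1 to 12 higher and 0 to 6 lower. Without an NMN library the 3 predicted genes and pseudogenes no longer passed the filter. Among the higher calls of the fits with only the 6 libraries, some were tested only because the NMN libraries reached the minimum level. Median-ratio factors, quantile scaling, moderation without trend, a pseudocount of 0.1 and a removed length trend kept the count within 1.5 times of 7. The paired fit of the 6 libraries changed no other call among the genes named by rule than those of Svip and mt-Nd1. Genes whose libraries did not overlap numbered 2504 without a filter and 564 with the stricter one, since more or fewer genes were tested. All marker sums kept their direction when scaled. The sign changed for 8 named genes, none of which passed in any setting. Gdf9 was at 0.05 with FPKM as deposited and 0.03 with quantile scaling and with weights, Zp1 at 0.03, 0.04 and 0.13 under the same 3, and Izumo1r at -0.01 with weights and -0.03 with the length trend removed. Over the left-out libraries the differences ran from -0.44 to 0.06 for Bmp15, -0.08 to 0.12 for Gdf9, -0.06 to 0.09 for Izumo1r, -0.11 to 0.33 for Mos, -0.35 to 0.18 for Nlrp5, -0.05 to 0.15 for Nmnat1, -0.05 to 1.1 for Pcp4l1 and -0.27 to 0.13 for Zp1. Depth limits genes near the floor of 0.0779 to 0.0907 FPKM, among them most young values of Stk32a.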

Other observations

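Genes of the major histocompatibility complex other than H2-T-ps were looked at after that call was seen. The other 4 tested H2 genes all had a higher mean in NMN than in young libraries, and 3 were higher without overlap, as were 7.97% of all tested genes. Among the 3 is H2-DMa, at 0.0364, 0.526 and 0.253 FPKM in young and 2.79, 0.554 and 1.18 FPKM in NMN libraries. Without the NMN libraries H2-DMa would not have reached the minimum level for testing, so its lack of overlap is no support for a difference. H2-K1, a class I heavy chain that presents peptides, was at 1.7, 0.617 and 0.856 FPKM in young and 5.81, 2.3 and 3.06 FPKM in NMN libraries (limma adjusted p = 0.275). H2-M5, a class I-like gene, was at 1.42, 0.919 and 1.35 FPKM in young and 6.43, 8.55 and 3.96 FPKM in NMN libraries (adjusted p = 0.128). H2-Aa, a class II chain, overlapped, at 2.14, 1.2 and 2.3 FPKM in young and 13.5, 1.54 and 10.8 FPKM in NMN libraries. Aged libraries held 3.9, 3.16 and 4.35 FPKM of H2-K1 and 1.58, 1.8 and 0.768 FPKM of H2-DMa. For H2-M5 they held 1.37, 2.6 and 0.848 FPKM, and for H2-Aa 1.2, 10.4 and 3.36 FPKM. These genes resemble each other, so reads may have been shared among them.

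Genes whose libraries did not overlap differed in kind between the directions. Of those higher in NMN, 91.2% were protein-coding in GENCODE M21, and of those lower, 79.7%, where 86.9% of all tested genes were. Their median transcript lengths, 2968 and 3006 nt, were close to the 3074 nt of all tested genes. No gene at 1 FPKM or more in all young libraries was at 0 in all NMN libraries, and 3 genes showed the converse, Gm47871, H2-T-ps and Olfr650-ps1.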
